A study of Mus musculus with 12 samples.

Results

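The BCL2 family decides whether a damaged cell releases the contents of its mitochondria and dies. Described here are 10 of its genes, picked by symbol from the 16942 genes of the deposited expression table: the survival genes Bcl2, Bcl2l1 (which encodes BCL-XL) and Mcl1, the pore-forming effectors Bax and Bak1, and the BH3-only genes Bad, Bid, Bik, Bbc3 (PUMA) and Pmaip1 (NOXA). All 10 had a row in the table, and 9 of them were among the 12329 genes with enough counts to be tested. Bik, with 2 to 11 counts per library, did not pass that filter and is given by its values.

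Total RNA of small intestine was sequenced from ICR mice, which are bred as an outbred stock, in 4 groups of 3 libraries. Busulfan is a DNA-crosslinking alkylating drug that depletes blood-forming and germ cells. AOS is a second treatment that the labels leave unexpanded and give as 0 or 10 with no unit. The groups were AOS0 (no busulfan, AOS at 0), AOS10 (no busulfan, AOS at 10), B+A0 (busulfan, AOS at 0) and B+A10 (busulfan, AOS at 10), where B was read as busulfan from the design text of the series. The labels give no age, sex or dose of busulfan, no time after treatment (the titles begin with W5, which is not explained), and no word on whether each library of a group is 1 animal, so a p-value here speaks only of the spread among these libraries, which may be technical.

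Proteins of the family act at the outer mitochondrial membrane. The survival proteins hold BAX and BAK in check, BH3-only proteins block the survival proteins or activate the effectors directly, and active BAX and BAK open pores through which cytochrome c leaves and starts the caspases. Bbc3 and Pmaip1 are textbook transcriptional targets of p53, as is Bax, and in crypts of the small intestine PUMA is known for its part in the death of progenitor cells after DNA damage. Most of the family is also controlled through protein turnover, phosphorylation and cleavage, which RNA counts do not show.

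The libraries held 13560246 to 16818237 counts. All 5 markers of intestinal epithelium checked (Vil1, Cdx2, Cdx1, Epcam and Cdh17) were detected in each of the 12 libraries, with sums of 4790 to 6130 CPM (counts scaled to the same library total). B+A0 replicates 2 and 3 stood farthest along the first principal component of all tested genes, at 22.5 and 32.5, against 4.62 for B+A0 replicate 1 and -20 to 11.9 for the other 9 libraries. The summed level of 11 T and natural killer (NK) cell markers, all detected in every library, was 163 to 280 CPM in AOS0, 153 to 196 in AOS10, 38.4 to 104 in B+A0 and 95.6 to 265 in B+A10. In tissue RNA, fewer cells of a type and less RNA per cell cannot be told apart.

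Per length of transcript, the 10 genes spanned a wide range of levels, in an order that changed little between libraries. Bak1 was the most abundant in each of the 12 libraries, at 203 to 270.2 FPKM (counts scaled to library total and transcript length) with a median of 237.6, and its lowest value lay above the highest of any other member. Mcl1 came next at 58.6 to 76.8 FPKM, Bax at 54.6 to 69.6 and Bad at 42.6 to 54.8, and the ranges of these neighbours overlapped. Bcl2l1 followed without overlap on either side, at 17.9 to 26.7 FPKM. Pmaip1 (5.63 to 12.04 FPKM) and Bid (7.29 to 11.2 FPKM) overlapped and changed places between libraries, each holding its usual place in 7 of the 12. The lowest were Bbc3 at 0.970 to 2.89 FPKM, Bcl2 at 0.680 to 1.09 and Bik at 0.160 to 0.880, with overlapping ranges between neighbours. Of the 3 survival genes, Bcl2 itself was thus the least abundant, at a median of 0.945 FPKM against 22.4 for Bcl2l1 and 66.3 for Mcl1. By mean FPKM, Bak1 lay above 96.6% of all tested genes and Bcl2 above 12.7%.

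**Figure D1:**
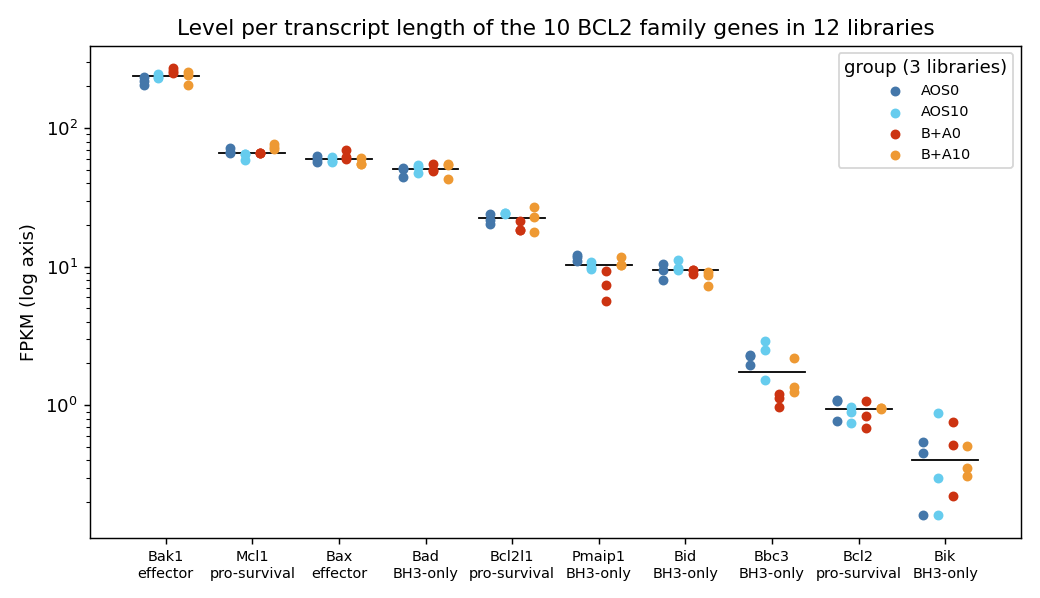
Deposited FPKM (log axis) of the 10 BCL2 family genes in 12 libraries, ordered by median (black line), with colour for the group. Bak1 lies above all others at 203 to 270.2 FPKM, and the 3 lowest genes, Bbc3, Bcl2 and Bik, lie below 3 FPKM.

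B+A0 was set against AOS0 to see the difference that went with busulfan in the absence of AOS. Of the 9 members tested, 1 changed: Pmaip1 fell, which is read against 3.64% of all tested genes called in either direction and 1.94% called lower (a gene was called at an adjusted p under 0.05 in edgeR's quasi-likelihood test). Its BH3-only relative Bbc3 had the largest difference of the 9 and did not pass. The effectors Bak1 and Bax lay slightly higher without passing, and the survival genes Mcl1, Bcl2l1 and Bcl2 did not pass. Of the 9, 4 lay above 0 and 5 below, with a median log2 fold change of -0.0071 against -0.0072 over all tested genes, and a median size of change of 0.139 against 0.162. In 4 members (Pmaip1, Bbc3, Bak1 and Bax) the groups did not overlap, as in 29% of all tested genes.

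Pmaip1 encodes NOXA, a BH3-only protein that binds MCL1 in particular and promotes its breakdown. Its level was 28.2, 27.3 and 30.5 CPM in AOS0 replicates 1, 2 and 3, and 24.3, 18.2 and 14.5 CPM in the matching order of B+A0. It was 24.5, 27.3 and 25.3 CPM in AOS10 and 26.6, 26.9 and 29.4 CPM in B+A10. Each B+A0 library was thus below every library of the other 3 groups, and B+A0 replicate 1, the nearest to them, lay just under the lowest AOS10 library. Pmaip1 fell from 28.7 ± 1.62 to 19.0 ± 4.94 CPM (SD, n = 3). The edgeR difference was -0.59 on the log2 scale (SE 0.15, 95% confidence interval -0.91 to -0.27, adjusted p = 0.0461), and Pmaip1 ranked 411 of the 12329 genes by p.

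The direction of the Pmaip1 difference held under all 19 alternatives tried, and its log2 fold change ranged from -0.80 to -0.42, but the call did not hold in all of them. It passed in 8, among them DESeq2 (adjusted p = 0.00734) and limma on log2(FPKM + 1) (adjusted p = 0.0364). It was lost when only AOS0 and B+A0 were fitted (adjusted p = 0.101, edgeR) and with the replicate number as a block (adjusted p = 0.0819, edgeR). Leaving out any AOS0 library also ended the call (adjusted p = 0.118, 0.0909 and 0.145 without replicates 1, 2 and 3, edgeR), as did leaving out any AOS10 library (0.0683, 0.0703 and 0.0719 in the same order). So did leaving out B+A10 replicate 2 (adjusted p = 0.0532), B+A0 replicate 2 (0.124) and B+A0 replicate 3, where the log2 fold change was -0.42 (adjusted p = 0.174, edgeR). Without B+A0 replicate 1 the log2 fold change was -0.80 and the adjusted p 0.00699 (edgeR).

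**Figure D2:**
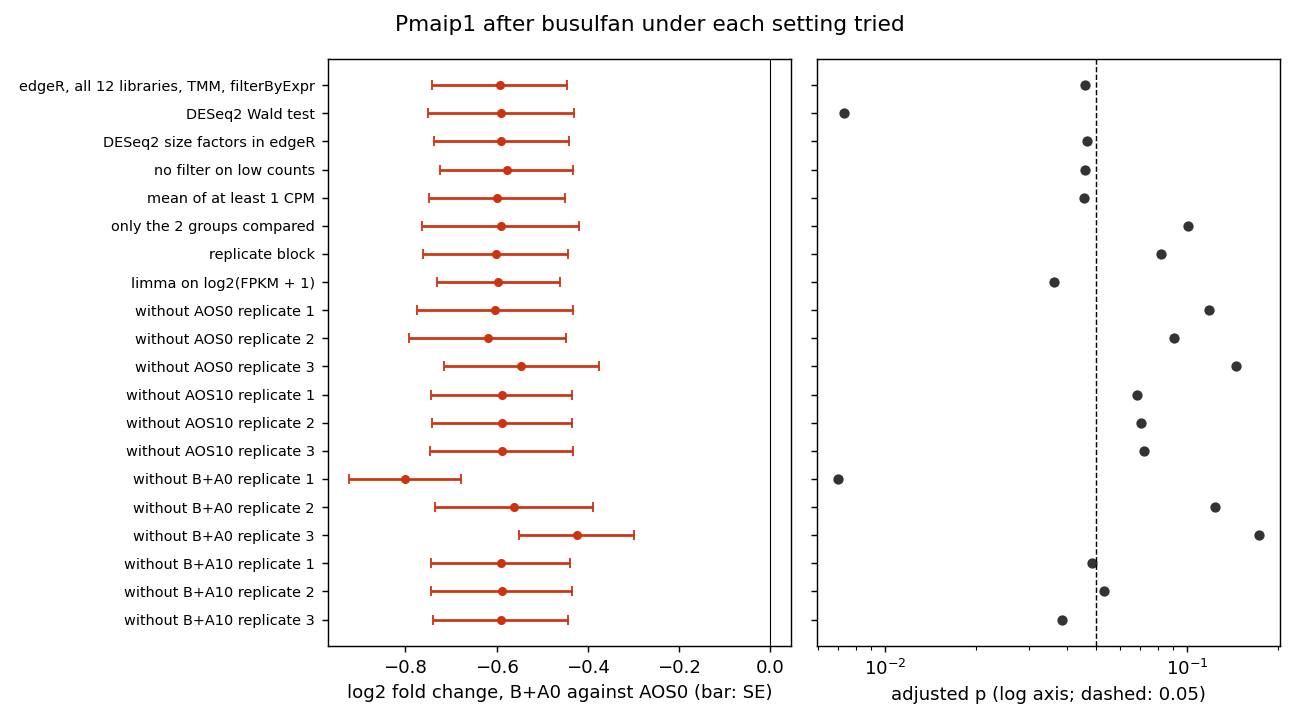
Left, the log2 fold change of Pmaip1 in B+A0 against AOS0 with its SE (bars) under the reported fit (top) and 19 alternatives; right, the adjusted p of each on a log axis, with 0.05 dashed. Every estimate is below 0, from -0.80 to -0.42, and the adjusted p lies on both sides of 0.05.

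Bbc3 encodes PUMA, a BH3-only protein that can engage all the survival proteins. It was at 3.43, 3.15 and 3.55 CPM in the AOS0 libraries and at 1.95, 1.85 and 1.52 CPM in those of B+A0. The groups did not overlap, and the highest B+A0 library was well under the lowest AOS0 library. Bbc3 had the largest difference of the family, a log2 fold change of -0.93 (SE 0.29, 95% confidence interval -1.55 to -0.31), with an adjusted p of 0.0828 (edgeR). It rested on 25 to 53 counts per library in these groups, and it was not called under any of the 19 alternatives (adjusted p 0.0530 to 0.282).

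Bak1 encodes BAK, the effector that sits in the mitochondrial outer membrane at rest. It was at 363.4, 401.3 and 435.7 CPM in AOS0 and at 521.5, 468.7 and 479.6 CPM in B+A0, so the groups did not overlap. The difference was a log2 fold change of 0.29 (SE 0.10, 95% confidence interval 0.066 to 0.52) and did not pass (adjusted p = 0.125, edgeR). It passed under 1 of 19 alternatives, without B+A10 replicate 3 (adjusted p = 0.0476, edgeR). Exons of Bak1 (chromosome 17, 27019812 to 27028627, GRCm38.p6) share 614 bases with Ggnbp1 on the other strand (GENCODE M21 annotation), and the strand setting of the counting is not given in the sources used here; Ggnbp1 itself was listed at 0.210 to 0.670 FPKM.

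Bax encodes the effector that moves from the cytosol to mitochondria when activated. It was at 45.5, 42.1 and 44.9 CPM in AOS0 and at 46.9, 45.6 and 53.4 CPM in B+A0. The groups were barely apart, with the lowest B+A0 library next to the highest AOS0 library. The log2 fold change was 0.14 (SE 0.085, 95% confidence interval -0.045 to 0.32, adjusted p = 0.368, edgeR).

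Mcl1, the short-lived survival protein that NOXA binds, was at 212.7, 222.2 and 241.2 CPM in AOS0 and at 228.6, 217.6 and 226.4 CPM in B+A0. The groups overlapped fully, with a log2 fold change of -0.0071 and a 95% confidence interval of -0.17 to 0.16. Bcl2l1, whose main product BCL-XL protects epithelial cells, was at 46.5 to 55.2 CPM in AOS0 and 42.4 to 51.7 in B+A0 (log2 fold change -0.12, 95% confidence interval -0.41 to 0.16). Bcl2, the founding member and a survival factor of lymphocytes, was at 7.38, 5.90 and 5.47 CPM in AOS0 and at 4.14, 5.30 and 5.76 CPM in B+A0 (log2 fold change -0.30, 95% confidence interval -0.71 to 0.10). Its lowest AOS0 library lay below its highest B+A0 library, so the groups overlapped. None of these 3 survival genes was called under any alternative.

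The remaining BH3-only genes showed intervals around 0. Bad, whose protein is switched off by phosphorylation in response to growth factors, was at 39.6 to 47.7 CPM in AOS0 and 44.4 to 51.9 in B+A0 (log2 fold change 0.11, 95% confidence interval -0.15 to 0.37). Bid, which links death receptors to mitochondria after caspase cleavage, was at 13.9 to 18.6 CPM in AOS0 and 15.8 to 17.1 in B+A0 (log2 fold change 0.028, 95% confidence interval -0.25 to 0.31). Bid shares 628 exonic bases with Bcl2l13, another gene of the family on the other strand, and Bad shares 524 with Gpr137 on the other strand. These were listed at 9.96 to 13.1 FPKM (Bcl2l13) and 15.6 to 21.1 FPKM (Gpr137), so the counts of both pairs are uncertain in how they were split. Bax (192 bases with Gm45808, same strand) and Bcl2 (558 bases with the antisense gene D630008O14Rik) also share exonic sequence. Bik, a BH3-only gene of the endoplasmic reticulum, was at 0.131 to 0.444 CPM in AOS0, 0.134 to 0.713 in AOS10, 0.251 to 0.667 in B+A0 and 0.245 to 0.424 in B+A10, which overlap throughout.

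**Figure D3:**
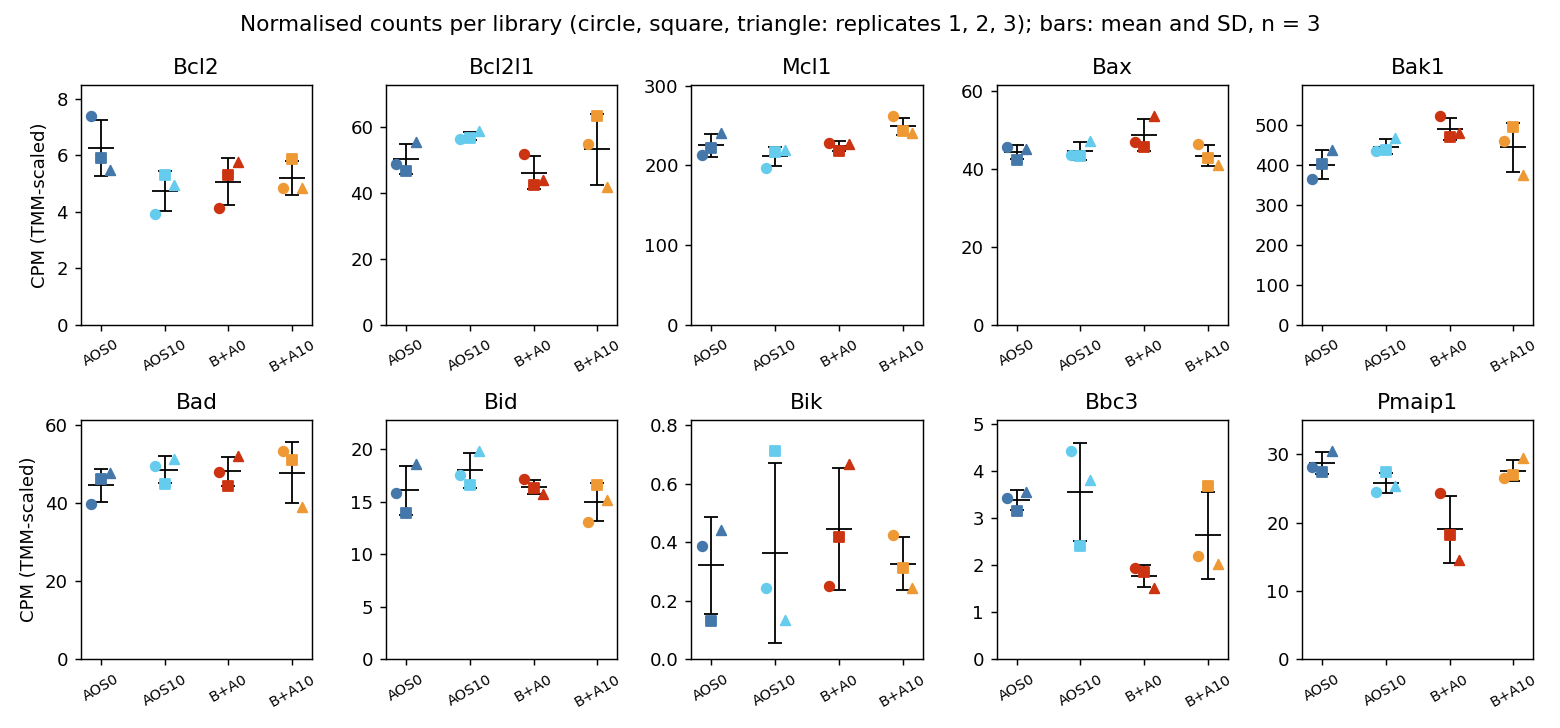
TMM-scaled CPM (axes from 0) of each of the 10 genes in the 4 groups, with 1 point per library (circle, square and triangle for replicates 1, 2 and 3) and bars for the mean and SD (n = 3). Pmaip1 in B+A0 (14.5 to 24.3 CPM) lies below all other libraries, and Bbc3 in B+A0 (1.52 to 1.95 CPM) lies below all AOS0 libraries (3.15 to 3.55 CPM).

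The T and NK cell markers lay lower in B+A0 than in AOS0, as did Pmaip1 and Bbc3. In B+A0 replicates 1, 2 and 3 the summed marker level was 104.3, 60.4 and 38.4 CPM, in the same order as Pmaip1 (24.3, 18.2 and 14.5 CPM) and Bbc3 (1.95, 1.85 and 1.52 CPM). Along the first principal component of all tested genes these 3 libraries stood in the reverse order (4.62, 22.5 and 32.5). In AOS0 the summed marker level was 280.4, 162.6 and 269.2 CPM. It was lowest in replicate 2, as were Pmaip1 (27.3 CPM) and Bbc3 (3.15 CPM). The marker sum was highest in replicate 1, and Pmaip1 and Bbc3 were both highest in replicate 3. All 11 markers were detected in every library of both groups, and their part in the differences of Pmaip1 and Bbc3 was not tested. Of the other marker sums, some lay apart as well. The 5 mast cell markers were at 43.3 to 126 CPM in AOS0 and 9.47 to 14.2 in B+A0 (Fcer1a at 0 in some libraries). The 5 fibroblast markers were barely apart, at 4.597 to 7.397 and 1.966 to 4.517 CPM (Pdgfra at 0 in some libraries). The groups overlapped in the 7 enterocyte markers (8210 to 8740 and 5130 to 10000 CPM) and in the 6 markers of crypt stem and dividing cells (1260 to 1930 and 1220 to 1630 CPM). The sum of the 5 Paneth cell markers lay higher in B+A0 (5010 to 6090 CPM) than in AOS0 (2700 to 4280 CPM). Of these markers only Mmp7 overlapped (80.2 to 166 and 93.0 to 117.6 CPM), and none of the 5 was called by edgeR. The part of these cell types in the results was not tested.

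Levels of Pmaip1 and the T and NK markers were not in the same order over the other groups. In AOS10 replicates 1, 2 and 3 the marker sum was 195.5, 152.9 and 163.6 CPM. Pmaip1 had the reverse order there (24.5, 27.3 and 25.3 CPM), while Bbc3 had the order of the markers (4.42, 2.40 and 3.81 CPM). B+A10 replicate 1 had a marker sum of 95.6 CPM, below that of B+A0 replicate 1, and Pmaip1 at 26.6 CPM against 24.3. Bbc3 was at 2.18 CPM in that B+A10 library, and at 3.69 CPM in B+A10 replicate 2, whose marker sum of 265.1 CPM was the highest of the 6 busulfan libraries.

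**Figure D4:**
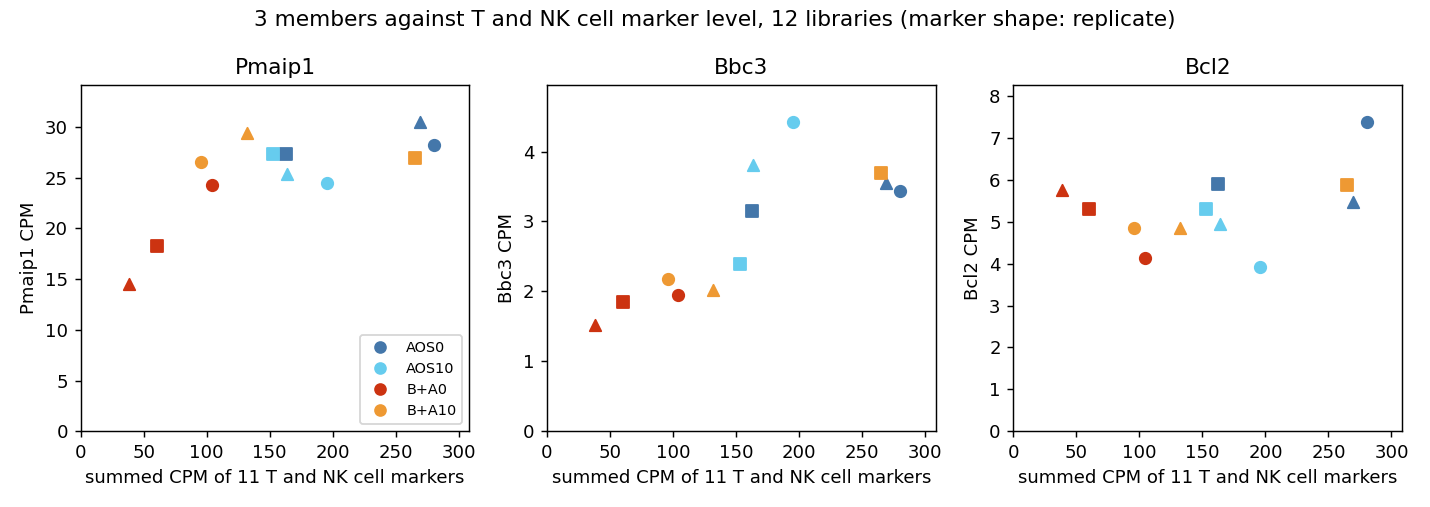
CPM of Pmaip1, Bbc3 and Bcl2 (vertical) against the summed CPM of 11 T and NK cell markers (horizontal), 1 point per library, with colour for the group and shape for the replicate. B+A0 replicates 2 and 3 have the lowest marker sums (60.4 and 38.4 CPM) and the lowest Pmaip1 (18.2 and 14.5 CPM).

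The genes whose log2 CPM followed Pmaip1 most closely over the 12 libraries, among 11637 compared, were Lcp1, an actin-bundling protein of white blood cells (Pearson r 0.95), the adhesion scaffold Nedd9 (0.937) and Malrd1 (0.936). For Bbc3 they were Cd6, a surface receptor of T cells (0.953), Mycbpap (0.944) and Ppp1r18 (0.943). These are descriptions over 12 libraries that share their treatment groups, and the genes were picked as the highest of many. Which cells these transcripts came from was not tested. Within the family the highest correlations were those of Bak1 with Bad (0.764), Bcl2l1 with Bbc3 (0.654) and Bbc3 with Pmaip1 (0.578), and the lowest was that of Bax with Pmaip1 (-0.756).

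AOS10 was set against AOS0 to see the difference that went with AOS in the absence of busulfan. No member passed, and neither did any other gene by edgeR (0% called, 768 genes at an unadjusted p under 0.05); DESeq2 called 63 genes and no member. In 3 of the 9 members the groups did not overlap (Bcl2, Bcl2l1 and Pmaip1), beside 20.7% of all tested genes. For Pmaip1 this rests on a near tie, since the lowest AOS0 and the highest AOS10 library were both at 27.345 CPM as rounded. Bcl2 was at 5.47 to 7.38 CPM in AOS0 and at 3.93, 5.31 and 4.94 CPM in AOS10 (log2 fold change -0.41, SE 0.19, adjusted p = 0.799, edgeR). On the deposited FPKM scale, however, the Bcl2 groups overlapped, at 1.09, 1.07 and 0.770 FPKM in AOS0 and 0.890, 0.970 and 0.740 in AOS10. The transcript length implied by its count and FPKM varied 1.61-fold between libraries, from 4404 to 7087 bases, where for the other 8 tested members it varied by at most 1.11-fold. Bcl2l1 was at 46.5 to 55.2 CPM in AOS0 and 56.2 to 58.6 in AOS10 (log2 fold change 0.19, 95% confidence interval -0.099 to 0.47).

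B+A10 was set against B+A0 to see the difference that went with AOS among mice given busulfan. No member and no other gene passed by edgeR (0% called, 1210 genes at an unadjusted p under 0.05), while DESeq2 called 82 genes and no member. Pmaip1 was at 26.6, 26.9 and 29.4 CPM in B+A10, above all B+A0 libraries, with a log2 fold change of 0.54 (SE 0.15, 95% confidence interval 0.22 to 0.86, unadjusted p = 0.00299, adjusted p = 0.284, edgeR). It passed in 1 of 19 alternatives, without B+A0 replicate 1 (log2 fold change 0.76, adjusted p = 0.0282, edgeR). Bbc3 was at 2.18, 3.69 and 2.02 CPM in B+A10 and also lay above all B+A0 libraries (log2 fold change 0.57, 95% confidence interval -0.053 to 1.20). The 3 members whose groups did not overlap were these and Mcl1, beside 10.2% of all tested genes. The comparisons with B+A0 on one side share its 3 libraries, so the lower Pmaip1 and Bbc3 of B+A0 enter both.

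In B+A10 against AOS10, which asked for the busulfan difference among mice given AOS, no member passed, beside 0.162% of all tested genes called. Mcl1 had the smallest p of the family. It was at 197.1, 217.1 and 219.5 CPM in AOS10 and at 261.8, 243.8 and 241.1 CPM in B+A10, and it was the 1 member whose groups did not overlap (14.9% of all tested genes). Its difference was 0.24 on the log2 scale (SE 0.077, 95% confidence interval 0.070 to 0.40, adjusted p = 0.300, edgeR). Pmaip1 had a log2 fold change of 0.10 (95% confidence interval -0.21 to 0.42) and Bbc3 of -0.43 (95% confidence interval -1.02 to 0.16) in this comparison. Bid was at 16.6 to 19.8 CPM in AOS10 and 13.1 to 16.6 in B+A10 (log2 fold change -0.26, 95% confidence interval -0.54 to 0.015).

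Whether the busulfan difference itself differed between the AOS levels was tested as an interaction, and no member and no other gene passed by edgeR (0% called, 844 genes at an unadjusted p under 0.05; DESeq2 called 17 genes and no member). Pmaip1 had an interaction of 0.70 on the log2 scale (SE 0.21, 95% confidence interval 0.25 to 1.146, unadjusted p = 0.00537, adjusted p = 0.499, edgeR), and Mcl1 of 0.24 (95% confidence interval 0.0082 to 0.48, adjusted p = 0.709, edgeR). The interaction of Bak1 was -0.30 (95% confidence interval -0.62 to 0.021) and that of Bbc3 0.50 (95% confidence interval -0.36 to 1.36).

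**Figure D5:**
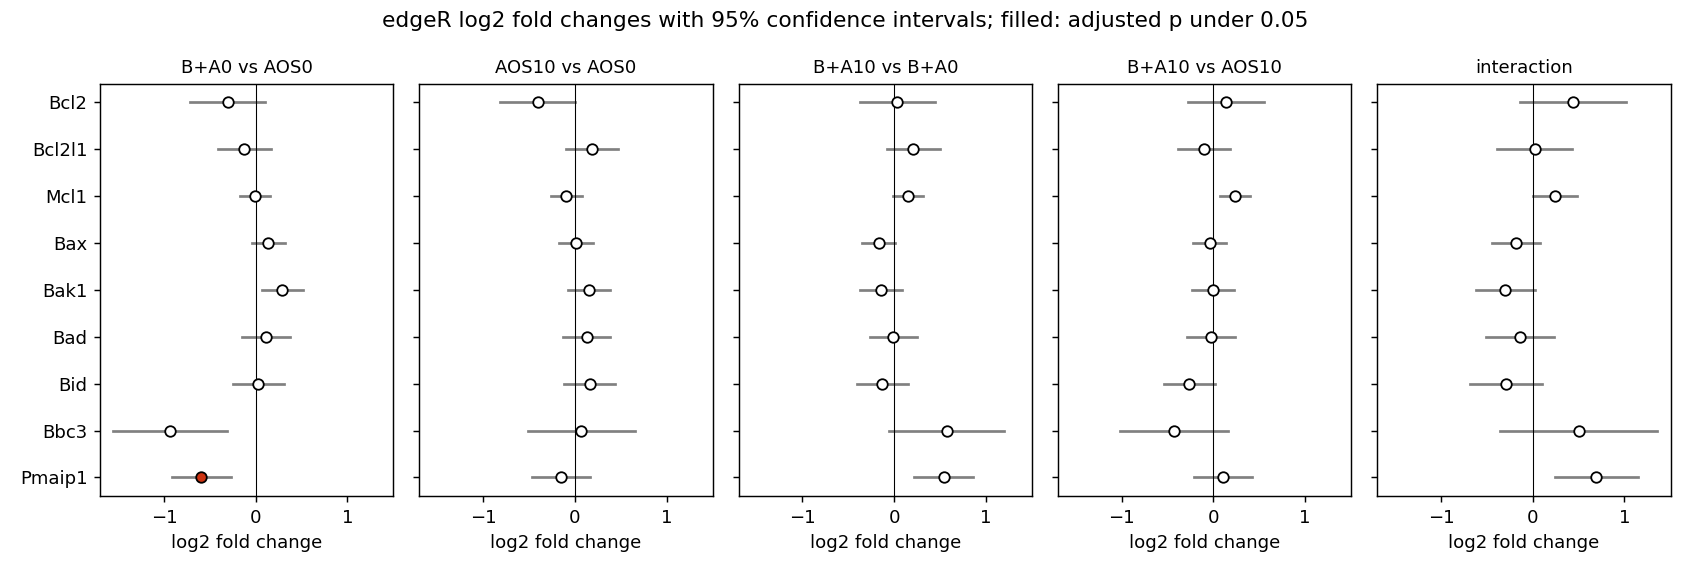
edgeR log2 fold changes (points) with 95% confidence intervals (lines) of the 9 tested members in the 4 comparisons and the interaction. The 1 filled point, adjusted p under 0.05, is Pmaip1 in B+A0 against AOS0 (-0.59).

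The ratio of Bax to Bcl2, a customary index of the balance between effector and survival transcripts, is given as a description. From FPKM it was 57.9, 53.2 and 77.3 in AOS0, 64.8, 59.1 and 83.9 in AOS10, 88.3, 74.6 and 65.1 in B+A0 and 63.7, 58.1 and 57.7 in B+A10. From FPKM, B+A10 lay below B+A0 without overlap, and every other pair of groups overlapped. On the log2 scale the mean of B+A0 was higher than that of AOS0 by 0.282 from FPKM and 0.441 from CPM, and the mean of AOS10 by 0.144 and 0.415. From CPM, the log2 ratio of B+A0 (3.104 to 3.501) lay above that of AOS0 (2.622 to 3.036) without overlap, while B+A10 (2.857 to 3.252) and B+A0 overlapped. Both differences thus depend on the scale used for Bcl2, whose implied length varied as given above, and so does the separation of the groups.

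The upstream sequences of 3 members are shown, 1 for each role in the family: the BH3-only gene with the largest difference (Bbc3), an effector (Bax) and the survival gene with the smallest p after busulfan with AOS (Mcl1). Sequences for 8 of the 10 members were taken from a RefSeq table (GRCm38.p6). Pmaip1, the member called after busulfan alone, and Bik were not among those used, so their upstream sequences were not examined. Each is the 250 bases before an annotated start, on the strand of the gene. Capitals mark matches on either strand. The motifs searched were the GC box with the letters GGGCGG, the E-box with the letters CACGTG, the p53 half-site, the cyclic AMP response element with the letters TGACGTCA, the TATA box with the letters TATAAA and the element of ATF4 and CHOP with the letters TGATGCAA. The last 3 were not found in these windows.
Bbc3: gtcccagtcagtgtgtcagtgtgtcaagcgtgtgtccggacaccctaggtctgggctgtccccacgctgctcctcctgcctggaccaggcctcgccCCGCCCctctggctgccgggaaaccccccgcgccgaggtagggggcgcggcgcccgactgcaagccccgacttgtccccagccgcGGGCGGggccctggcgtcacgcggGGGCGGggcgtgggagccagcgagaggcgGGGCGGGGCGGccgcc
Bax: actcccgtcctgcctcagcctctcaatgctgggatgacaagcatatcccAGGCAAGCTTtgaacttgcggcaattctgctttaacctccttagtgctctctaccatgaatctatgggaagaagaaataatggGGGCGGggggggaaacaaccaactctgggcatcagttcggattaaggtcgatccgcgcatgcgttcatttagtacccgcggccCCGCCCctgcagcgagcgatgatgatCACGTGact
Mcl1: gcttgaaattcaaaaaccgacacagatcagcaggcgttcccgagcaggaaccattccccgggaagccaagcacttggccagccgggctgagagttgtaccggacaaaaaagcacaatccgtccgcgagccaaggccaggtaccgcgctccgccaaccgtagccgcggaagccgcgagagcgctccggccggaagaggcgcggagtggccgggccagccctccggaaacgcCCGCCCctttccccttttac
The Bbc3 window (chr7:16309333-16309582, plus strand) is the most upstream of the 3 in the table for this gene, lies within the annotated gene (chromosome 7, 16308398 to 16318334) and holds 5 GC boxes, of which a pair overlaps by 1 base. The Bax window (chr7:45466899-45467148, minus strand; gene at 45461695 to 45466903 of chromosome 7) holds 2 GC boxes, 1 E-box with its first base 9 before the start and 1 p53 half-site. The Mcl1 window (chr3:95658471-95658720, plus strand) also lies within its annotated gene (chromosome 3, 95656944 to 95663179) and holds 1 GC box. Of 32851 windows of this length in the table, 32.7% held a GC box, 6.02% an E-box, 7.13% a p53 half-site, 1.55% a cyclic AMP response element, 12.4% a TATA box and 0.791% the ATF4 and CHOP element. A match of letters is not a binding site, and no binding was measured.

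Genes that act around the family were described from 6 lists. Of 16 tested genes of p53 and its other targets, 1 fell and 1 rose after busulfan alone, beside 3.64% of all tested genes called in either direction. The list median was -0.079 against -0.0072 over all genes. Sesn1, a stress-induced antioxidant protein, was at 94.6, 105.8 and 103.6 CPM in AOS0 and at 73.6, 65.2 and 57.1 CPM in B+A0, and fell by 0.63 on the log2 scale (SE 0.11, adjusted p = 0.0130, edgeR; passed in 17 of 19 alternatives). The 2 it missed were without AOS0 replicate 3 (adjusted p = 0.0541) and without B+A0 replicate 3 (adjusted p = 0.0756, edgeR). Tigar, a regulator of sugar metabolism, was at 13.1, 13.2 and 13.2 CPM in AOS0 and at 17.7, 21.1 and 19.7 CPM in B+A0, and rose by 0.57 on the log2 scale (SE 0.14, adjusted p = 0.0406, edgeR; passed in 9 of 19 alternatives). By edgeR, the Tigar call was lost with the replicate block (adjusted p = 0.0714) and on leaving out any AOS0 library (0.118, 0.0902 and 0.119 without replicates 1, 2 and 3), any AOS10 library (0.0573, 0.0600 and 0.0576 likewise), or B+A0 replicate 2 (0.118) or B+A0 replicate 3 (0.143). It was also lost by limma on log2(FPKM + 1) (adjusted p = 0.0688). Trp53, which encodes p53 itself, had a log2 fold change of 0.17 and its inhibitor Mdm2 of -0.065, and neither passed. In the other comparisons no gene of this list passed. In B+A10 against AOS10 the log2 fold change of Tigar was 0.67 (adjusted p = 0.0805, edgeR). That of Sesn1 was -0.34 (adjusted p = 0.2855, edgeR).

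In the other 5 lists no gene passed in any comparison. Of 10 tested further members of the BCL2 family, 4 lay above 0 and 6 below after busulfan alone (median -0.152), with the smallest p for Bnip3l, a mitophagy receptor (log2 fold change -0.38, adjusted p = 0.0728, edgeR), and for Bok, a relative of BAX and BAK (-0.56, adjusted p = 0.178, edgeR). The 17 genes of the apoptosome, caspases and their inhibitors had a median of 0.024, led by Diablo (0.25) and Endog (0.24), which encode mitochondrial proteins released during cell death. The 11 death receptor genes had a median of 0.036; Fasl, the ligand carried by cytotoxic lymphocytes, stood at -1.79 (adjusted p = 0.109, edgeR) at a mean of 1.05 CPM in AOS0 and 0.307 in B+A0, and Cflar, an inhibitor of caspase-8, of 0.26. The 9 stress factors tested had a median of -0.015, with Ddit3 (CHOP) at -0.30 and Myc at 0.48, and the 10 mitochondrial partners and regulators of MCL1 turnover of -0.028, with Tpt1 at -0.18 and Ywhaz at -0.13.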

How the data were processed

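RNA-seq of 12 libraries was deposited as 1 table of 16942 genes; groups and replicate numbers come from the labels. Reads were placed on mm10 per the submitters' processing notes. Which aligner, counter, annotation and strandedness were used is not given in the sources used here. The read count columns that the authors deposited hold expected counts without scaling; 8.90% to 9.33% were fractional (tolerance 1e-06), and all were rounded here. The expression columns that the authors deposited were read as FPKM from their values: for 5071 genes above 500 counts throughout, counts divided by these values tracked the library totals to within 0.256%.

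edgeR 4.0.16 (R 4.3.3) fitted 1 quasi-likelihood model to all 12 libraries (filterByExpr, TMM factors 0.969 to 1.05, Benjamini-Hochberg over all 12329 tested genes); each SE was derived from the fold change and F. The script was tested on simulated data. Alternatives were DESeq2 1.42.0, DESeq2 size factors, no filter, a mean of at least 1 CPM, only the compared groups, a replicate block, limma 3.58.1 and leaving out each library. Members and lists were chosen with earlier results of these data known. Named genes are all members, called genes of the 6 lists (else the 2 of smallest p after busulfan alone), and the 3 genes closest to the 2 members of smallest p; Trp53 and Mdm2 were added after their values were seen. No libraries of a group were duplicates (chi-square of pairs divided by its degrees of freedom, 8.28 to 35.4). Figures used matplotlib 3.10.9.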

Additional observations from a re-analysis of the deposited data

How the results depend on the processing

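Over the libraries left out 1 at a time, genes called by edgeR in B+A0 against AOS0 numbered from 21, when the third B+A0 library was left out, to 1099, when the first was, against 449, and members called 0 to 2. The same ranges were 0 to 28 genes for AOS10 against AOS0, 0 to 51 genes and 0 to 1 members for B+A10 against B+A0, 0 to 61 genes for B+A10 against AOS10 (20 with all libraries) and 0 to 1 for the interaction. DESeq2 called 1025, 63, 82, 138 and 17 genes in these 5 tests. With only the compared groups, 241, 62 and 0 genes were called in B+A0 against AOS0 (0 members), AOS10 against AOS0 and B+A10 against AOS10. Without a filter, 8, 5 and 40 were called in AOS10 against AOS0, B+A10 against B+A0 and B+A10 against AOS10, and limma called 2 in the last. In B+A0 against AOS0 limma on log2(FPKM + 1) called 133 genes higher and 322 lower, where edgeR called 210 and 239. With the replicate number as a block, 193 genes and 0 members were called in B+A0 against AOS0, 15 genes in AOS10 against AOS0, 4 in B+A10 against B+A0 and 3 in B+A10 against AOS10. No pairing by number was seen: across groups, same-numbered libraries correlated at -0.209 to 0.214 and differently numbered ones at -0.268 to 0.38. Of 12 libraries, 2 correlated best with their own number. With 3 libraries per group this check cannot exclude a pairing. The cause of these shifts was not tested. Reversals occurred in 31 of 846 alternative values, all uncalled, and the largest in size was -0.125 (Bbc3 in AOS10 against AOS0). In B+A0 against AOS0 Mcl1 was at 0.00845 without a filter and -0.0456 to 0.0452 with 1 library left out, and Bid at -0.00505 by limma and -0.0598 to 0.143. In AOS10 against AOS0 Bax was at -0.0193 by limma and -0.0253 to 0.0373, and Bbc3 at -0.125 to 0.289. In B+A10 against B+A0 Bcl2 ranged from -0.0865 to 0.137 and Bad from -0.0972 to 0.117. In B+A10 against AOS10 Bak1 was at 0.00451 without a filter, 0.00177 with only the compared groups and -0.0821 to 0.101, Bcl2l1 at -0.237 to 0.0442, Bax at -0.0920 to 0.00624 and Bad at -0.109 to 0.105. The interaction of Bcl2l1 ranged from -0.117 to 0.167. Sesn1 and Tigar were added to the alternatives after the data were seen. Bbc3, Bcl2 and Bik rest on few counts, which limits their precision.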
